A study of Gallus gallus with 48 samples.

Results

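The 4 transcription factors MYCL, SNAI2, HES5 and HEYL were followed across 48 chicken RNA-seq libraries. They are 4 of the 17108 genes of the expression table, found as the rows whose Ensembl identifier a published gene list pairs with one of these 4 symbols. They were chosen by their values in these same data: MYCL by its altitude difference in liver, SNAI2 by that in lung and HES5 by that in brain. These 3 differences are therefore given as values without a test. Which value led to the choice of HEYL is not recorded, so its altitude differences are given in the same way.

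MYCL belongs to the MYC family of basic helix-loop-helix leucine zipper proteins, which bind DNA together with MAX and promote growth and proliferation. SNAI2, also called Slug, is a zinc finger repressor that acts in the neural crest and in epithelial-mesenchymal transition, in which epithelial cells lose their junctions and become motile. HES5 and HEYL are basic helix-loop-helix repressors that are switched on by Notch receptors. HES5 is best known for holding neural progenitors in an undifferentiated state, and HEYL for its expression in vascular smooth muscle and other developing tissues.

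The series covered 4 tissues (brain, heart, liver, lung) and 2 chicken types, Tibetan and lowland, each at 3300 m and at 670 m, with 3 libraries in each of the 4 groups of a tissue. TC were Tibetan chickens at 3300 m, HLC lowland chickens at 3300 m, LTC Tibetan chickens at 670 m and LC lowland chickens at 670 m. The labels do not spell out HLC and LTC, whose meaning was taken from their first letter together with the labelled altitude. The stated purpose was to examine the tissues of chickens raised at different altitudes. No genetic change or drug was part of the design, and no source used here states breed, age, sex or how long the birds had lived there. The effect of altitude cannot be told apart from place, feed or day of sampling. Whether libraries of 1 group are from different birds is not stated, and all p-values measure only the spread between libraries, which may be technical.

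The values are FPKM, fragment counts scaled by transcript length and by the mapped fragments of the library, as deposited. Column sums ran from 452395 to 896066 FPKM, and 8498 to 11325 genes reached 1 FPKM in a library. The total depth is unknown, so no counting interval can be given for most values. Within a tissue the relative depth, estimated from the smallest steps between values of low genes, differed by at most 1.64 times between the deepest and the shallowest library. The labelled tissues carried their markers: the summed brain markers lay at 956 to 1313 FPKM in brain and at no more than 72.5 FPKM in the other tissues, and the summed heart markers at 2748 to 7239 FPKM in heart and at no more than 50 FPKM in the others. The summed liver markers lay at 3572 to 16322 FPKM in liver and at no more than 67 FPKM elsewhere, although OTC was listed at 0 in all 12 liver libraries. The summed lung markers lay at 253 to 442 FPKM in lung, against up to 161 FPKM in heart. The lung list holds RAMP2 and FLT4, which are also on the endothelial list, so this sum is not specific to lung. In these bulk samples, fewer cells of a type and less RNA per cell cannot be told apart.

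Each of the 4 factors had its own distribution over the tissues. By the median of its 12 libraries, MYCL was highest in liver, at 6.66 FPKM with a range of 0.527 to 25.4 FPKM. This did not hold in TC, where MYCL had a mean of 0.815 FPKM in liver and 2.6 FPKM in brain. Its median was 2.34 FPKM in brain, 0.955 FPKM in lung and 0.559 FPKM in heart. SNAI2 was highest in lung, with a median of 18.8 FPKM and a range of 11.5 to 70.4 FPKM. Its medians elsewhere were 5.37 FPKM in heart, 0.857 FPKM in brain and 0.571 FPKM in liver. HEYL was spread over 3 tissues, with medians of 10.2 FPKM in lung, 9.26 FPKM in brain and 8.64 FPKM in heart, against 0.969 FPKM in liver. HES5 was found in brain almost alone, at a median of 0.544 FPKM. It was listed at 0 in all 12 liver and all 12 lung libraries and in 9 of the 12 heart libraries, where the 3 other values were 0.0343 to 0.0439 FPKM. Among all 17108 genes, SNAI2 in lung stood at percentile 87.1 by its mean, and MYCL in liver at percentile 75.2.

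**Figure D1:**
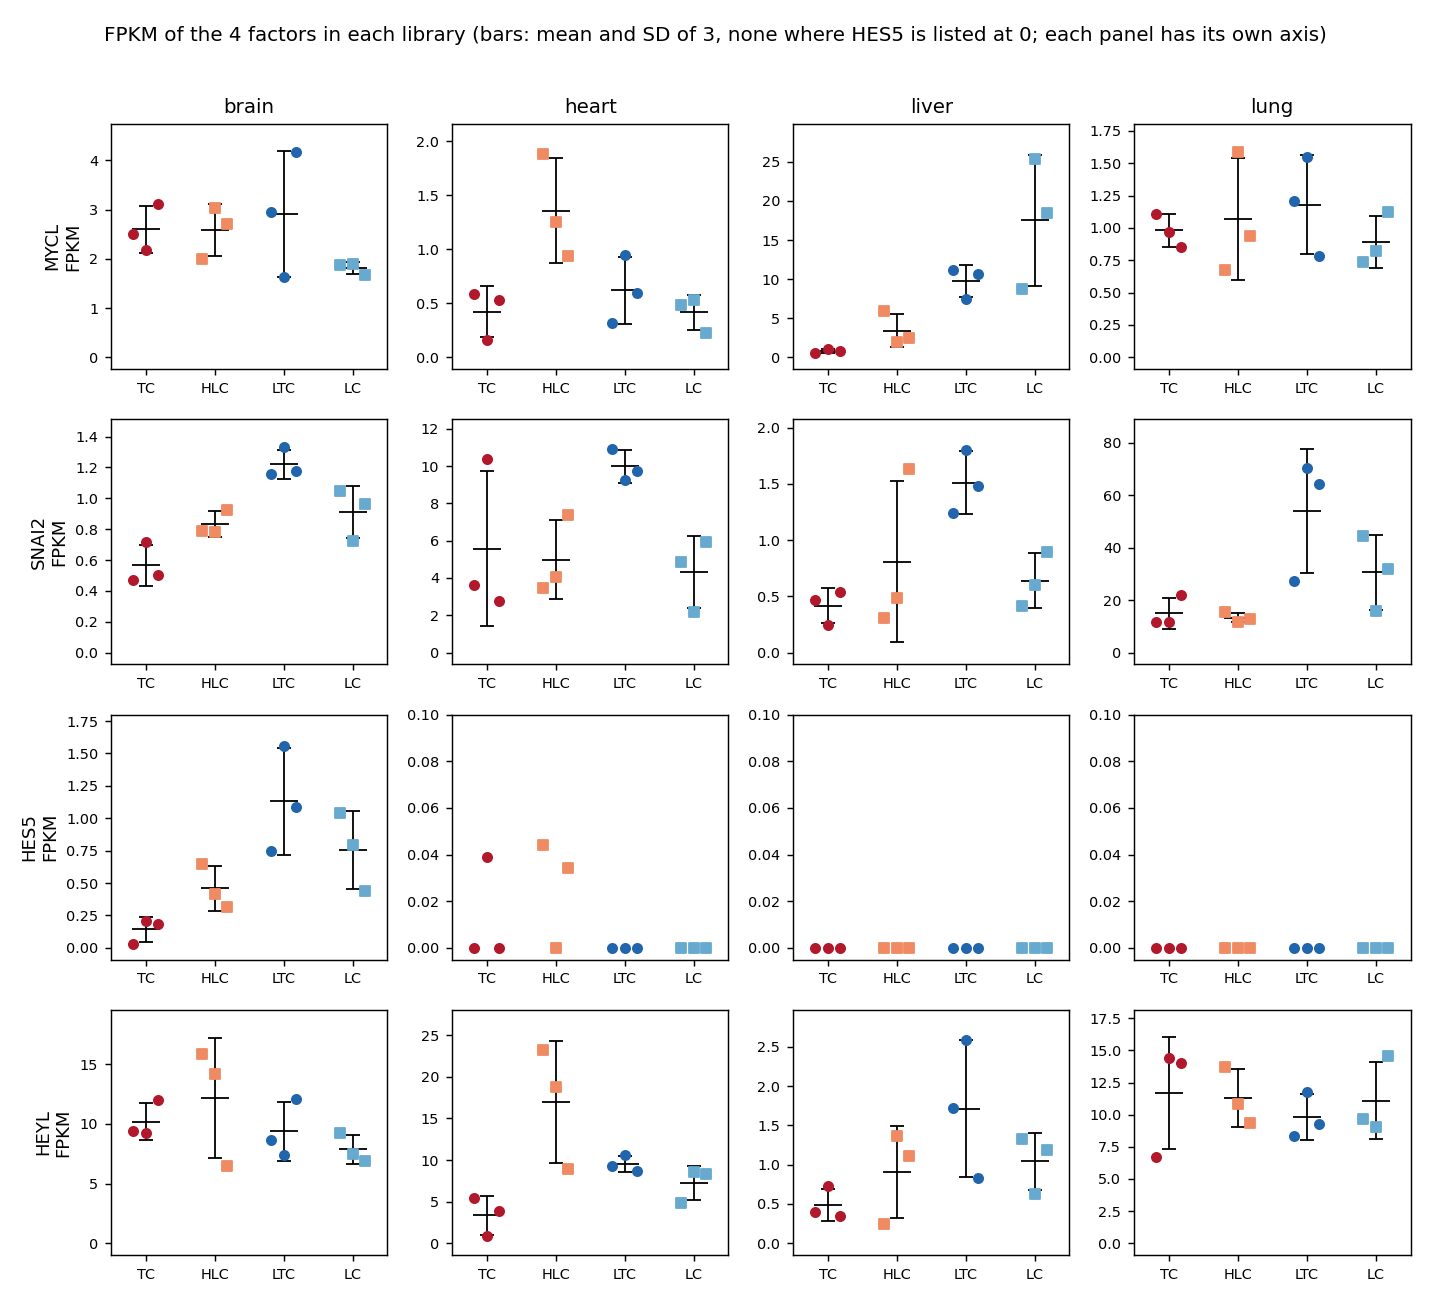
FPKM of MYCL, SNAI2, HES5 and HEYL (rows) in brain, heart, liver and lung (columns). Points are single libraries of the 4 groups, with red for 3300 m, blue for 670 m, circles for Tibetan and squares for lowland chickens, and bars are the mean and SD of 3 libraries. MYCL in liver spans 0.527 to 25.4 FPKM, and HES5 lies above 0.05 FPKM only in brain.

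The tissues were compared in limma, a linear model fitted across all genes, on log2(FPKM + 1), with Benjamini-Hochberg adjusted p-values over 13353 genes. A call here and below is an adjusted p under 0.05, 2-sided. A difference on this scale understates the change of low genes. Between tissues most genes differ: the share of all genes called was 80% between brain and heart, 85.7% between brain and liver, 83.9% between brain and lung, 72.2% between heart and liver, 83.9% between heart and lung, and 86.6% between liver and lung. HES5 was left out of these tests, since its values in 2 tissues are all 0. Whether libraries of different tissues share a bird is not stated, and the fit treats all libraries as independent.

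For MYCL, liver exceeded brain on the mean of the 4 groups, with a brain minus liver difference of -0.83 ± 0.14 (SE, limma adjusted p = 8.7e-07). The liver values that chose MYCL enter this test, and the order differed between groups. In TC every liver library (0.527 to 1.09 FPKM) was below every brain library (2.17 to 3.12 FPKM). In HLC liver (1.97 to 5.9 FPKM) and brain (1.99 to 3.03 FPKM) overlapped, and only at 670 m was every liver library above every brain library. Brain exceeded lung by 0.76 ± 0.14 (adjusted p = 4.3e-06). The neighbours lung and heart were not separated, with a heart minus lung difference of -0.29 ± 0.14 (adjusted p = 0.051) that became 0.31 under quantile normalization. For SNAI2, the heart minus lung difference was -1.86 ± 0.17 (adjusted p = 2.3e-12), and heart exceeded brain with a brain minus heart difference of -1.81 ± 0.17 (adjusted p = 4.8e-12). SNAI2 in brain and liver did not pass the test, at 0.07 ± 0.17 (adjusted p = 0.7), and under quantile normalization this difference was -0.72. For HEYL, liver lay below each of the other tissues, with a liver minus lung difference of -2.59 ± 0.18 (adjusted p = 4.2e-16). The order of lung, brain and heart was not settled. Heart minus lung was -0.44 ± 0.18 (adjusted p = 0.021) as deposited, 0.32 under quantile normalization and 0.12 under upper quartile scaling, and the call was lost without heart TC replicate 2 (adjusted p = 0.073) or heart HLC replicate 3 (adjusted p = 0.062).

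Within each tissue, altitude and chicken type were compared in a fit of its 12 libraries. MYCL could be tested in brain, liver and lung, SNAI2 and HEYL in all 4 tissues, and HES5 in brain, because a gene had to reach 1 FPKM in at least 3 of the 12 libraries of a tissue. MYCL in heart reached it in 2 libraries. HES5 in brain reached it in exactly 3 libraries, all at 670 m. SNAI2 reached it in 4 libraries in brain, LTC replicates 1 to 3 and LC replicate 1, and in 4 in liver, LTC replicates 1 to 3 and HLC replicate 3. A gene that passes through its high group in this way had to differ, so the number of factors that passed carries no information.

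**Figure D2:**
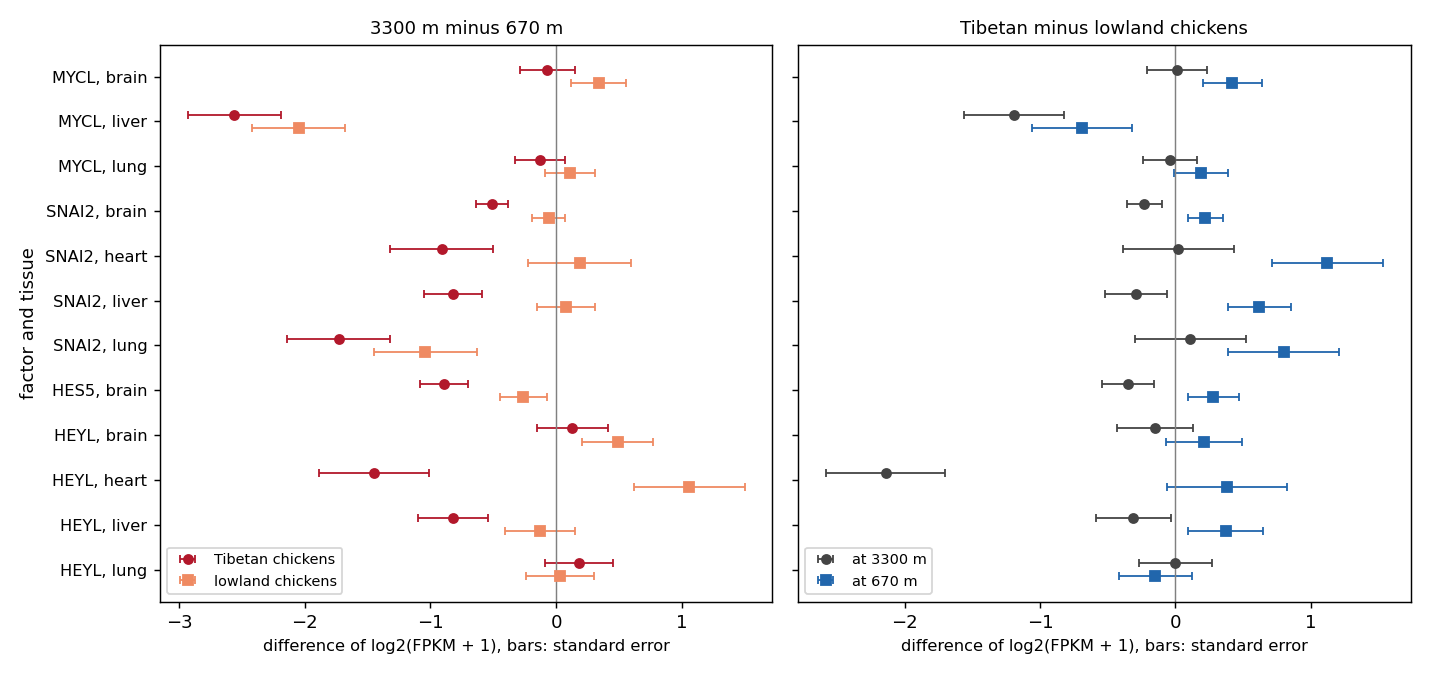
Differences of log2(FPKM + 1) between altitudes (left, for Tibetan and lowland chickens) and between chicken types (right, at 3300 m and at 670 m) for each factor and tissue fitted. Points are estimates and bars are standard errors. MYCL in liver and SNAI2 in lung lie below 0 in both chicken types on the left, and HEYL in heart lies at -1.45 in Tibetan but at 1.06 in lowland chickens.

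MYCL in liver was lowest in Tibetan chickens at 3300 m and highest in lowland chickens at 670 m. The 3 TC libraries held 0.527, 1.09 and 0.828 FPKM, and the 3 HLC libraries 5.9, 1.97 and 2.4 FPKM. The 3 LTC libraries held 11.2, 7.43 and 10.6 FPKM, and the 3 LC libraries 8.7, 25.4 and 18.5 FPKM. Every library at 3300 m was below every library at 670 m, and within 3300 m every TC library was below every HLC library, whereas LTC and LC overlapped. Group means were 0.815 ± 0.283 FPKM in TC, 3.42 ± 2.16 in HLC, 9.75 ± 2.04 in LTC and 17.5 ± 8.37 in LC (SD, n = 3).

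The altitude difference of MYCL in liver, which led to its choice and is not tested, was -2.31 ± 0.26 (SE) on the log2(FPKM + 1) scale. It was -2.56 ± 0.37 for Tibetan and -2.05 ± 0.37 in lowland chickens. The difference between these values was -0.51 ± 0.52. It is given without a test, since it is made from the values that chose MYCL. Whether the types differ or share the altitude difference was thus not tested. Altitude called 51.3% of all genes in liver and the interaction of altitude and type called 14%. The median of all genes for altitude in liver was -0.249, and it moved to -0.009 under quantile normalization, where the MYCL difference was -2.07.

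The type difference of MYCL in liver, Tibetan minus lowland, was -0.94 ± 0.26 (limma adjusted p = 0.042), in a contrast that called 11% of all genes. At 3300 m it was -1.19 ± 0.37 (adjusted p = 0.029), where 31.3% of all genes were called, and at 670 m it was -0.69 ± 0.37 (adjusted p = 0.67). The first of these calls was lost when any of 10 of the 12 libraries was left out, all but HLC replicate 2 and LC replicate 1, with values of -1.14 to -0.75 and adjusted p up to 0.099. The call at 3300 m was lost without HLC replicate 1, at -0.82 (adjusted p = 0.096), and without TC replicate 1, 2 or 3. With the replicate number as a block, the replicate block, adjusted p was 0.07 for the type difference and 0.051 at 3300 m. Beside these values, the summed liver markers, 6 of the 18 listed, lay at 13256 to 16322 FPKM in TC and at 3572 to 5180 FPKM in the 3 other groups. This sum is weighted to its highest genes, and the single markers were mixed. Of the 5 tested, altitude called 2 higher and 2 lower at 3300 m, where 51.3% of all genes were called. Type called 1 higher and none lower in Tibetan chickens, where 11% of all genes were called. The summed leukocyte markers, 12 of 21 listed, lay at 53.4 to 71.3 FPKM in TC, 43.3 to 55.5 in HLC, 72.8 to 105 in LTC and 77.8 to 108 in LC. Their part in the MYCL values was not tested.

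In brain and lung no altitude or type difference of MYCL passed the test. In brain it ran from 1.62 to 4.16 FPKM, with an altitude difference of 0.13 ± 0.15 (adjusted p = 0.74) and a type difference of 0.22 ± 0.15 (adjusted p = 1). In brain, altitude called 2.26% of all genes, type 0.00861% and the interaction 0.0344%. In lung it ran from 0.673 to 1.59 FPKM, with an altitude difference of -0.01 ± 0.14 (adjusted p = 0.97) and a type difference of 0.08 ± 0.14 (adjusted p = 0.82). In brain every LC library, at 1.67 to 1.89 FPKM, was below every library at 3300 m, while LTC overlapped all other groups, and in lung all groups overlapped. In heart, where it was too low to be tested, the HLC libraries held 1.88, 1.25 and 0.937 FPKM and the 9 others 0.156 to 0.944 FPKM. Every HLC library was above every TC and every LC library there, with group means of 1.36 ± 0.483 FPKM in HLC, 0.423 ± 0.233 in TC, 0.621 ± 0.312 in LTC and 0.415 ± 0.165 in LC (SD, n = 3).

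Of 13 genes of the MYC network, 2 others could be measured by symbol, MYC itself and MLX, a partner of the MondoA branch. In liver, where MYC had a median of 2.46 FPKM, its altitude difference was 0.26 ± 0.22 (adjusted p = 0.35), and that of MLX was -0.13 ± 0.09 (adjusted p = 0.25). MLX was lower in Tibetan than in lowland liver, at -0.36 ± 0.09 (adjusted p = 0.032). In lung, MLX was higher at 3300 m, by 0.30 ± 0.09 (adjusted p = 0.035), in a contrast that called 17.1% of all genes. No altitude difference of either gene passed the test in brain or heart, where altitude called 2.26% and 0.0193% of all genes.

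Only the 6.91% of genes with a symbol were searched for those closest to a factor. Over the 12 liver libraries, MYCL was followed most closely by TNFRSF9, a costimulatory receptor of the tumour necrosis factor receptor family (Pearson r = 0.95). Next were KIAA0895L (r = 0.94) and PANK1, a pantothenate kinase of coenzyme A synthesis (r = 0.93). PANK1 was also among the 3 closest over the 16 group means (r = 0.84). The points share library and tissue, and 51.3% of the genes tested in liver were called by altitude.

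SNAI2 in lung was low at 3300 m in both chicken types. The 3 TC libraries held 11.6, 11.5 and 21.9 FPKM, and the 3 HLC libraries 15.3, 11.8 and 12.7 FPKM. The 3 LTC libraries held 27.1, 70.4 and 64.3 FPKM, and the 3 LC libraries 44.3, 15.7 and 31.8 FPKM. Every LTC library exceeded every library at 3300 m, while LC replicate 2 lay among them. Group means were 15 ± 5.98 FPKM in TC, 13.3 ± 1.8 in HLC, 53.9 ± 23.5 in LTC and 30.6 ± 14.3 in LC (SD, n = 3).

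The altitude difference of SNAI2 in lung, which led to its choice and is not tested, was -1.38 ± 0.29 (SE). It was -1.73 ± 0.41 for Tibetan and -1.04 ± 0.41 in lowland chickens. The difference between these values was -0.69 ± 0.58. It is given without a test, since it is made from the values that chose SNAI2. Whether the types differ or share the altitude difference was thus not tested. The interaction called 0.509% of all genes in lung. The type difference of SNAI2 in lung was 0.46 ± 0.29 (adjusted p = 0.48), in a contrast that called 0.0431% of all genes, and at 670 m it was 0.80 ± 0.41 (adjusted p = 0.43).

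Mesenchymal genes and leukocyte markers held calls in the same direction as the SNAI2 difference in lung, where 11.6% of all genes were called lower and 5.57% higher. Of 34 mesenchymal genes listed, 13 could be measured, and 8 of these were lower at 3300 m and none higher, with a median difference of -0.70 against -0.04 over all genes. Those with the smallest p were SFRP2, a secreted Wnt modulator (-0.88 ± 0.13, adjusted p = 0.0021), COL5A1, a fibrillar collagen (-0.84 ± 0.15, adjusted p = 0.0056), SPARC, a matrix glycoprotein (-1.19 ± 0.23, adjusted p = 0.0076), and MMP11, a matrix metalloprotease (-1.97 ± 0.44, adjusted p = 0.014). Their summed level lay at 642 to 848 FPKM in TC, 479 to 683 in HLC, 924 to 1866 in LTC and 794 to 1477 in LC. Of 21 leukocyte markers listed, 12 could be measured, of which 8 were lower at 3300 m and none higher, with a median of -0.63. Their summed level lay at 135 to 176 FPKM in TC, 151 to 234 in HLC, 186 to 227 in LTC and 158 to 197 in LC. The 1 erythroid marker of 13 with a symbol was higher at 3300 m, by 1.57, with 19.2 to 74.4 FPKM in TC and HLC and 5.92 to 25.4 FPKM in LTC and LC. The part of these cell types in the SNAI2 values was not tested. Among genes with a symbol, COL6A2, a collagen VI chain, was the closest to SNAI2 over the 12 lung libraries (r = 0.99). Next were LEPROT, the leptin receptor overlapping transcript (r = 0.96), and MMP2, a gelatinase (r = 0.96). Over the 16 group means the closest were FGF7, RTTN and NTF3 (r = 0.98 each). The 12 points share the altitude and type groups, and the 16 means also span the tissues. COL6A2 and MMP2 are among the 13 mesenchymal genes, with altitude differences of -1.01 ± 0.25 and -1.23 ± 0.31.

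**Figure D3:**
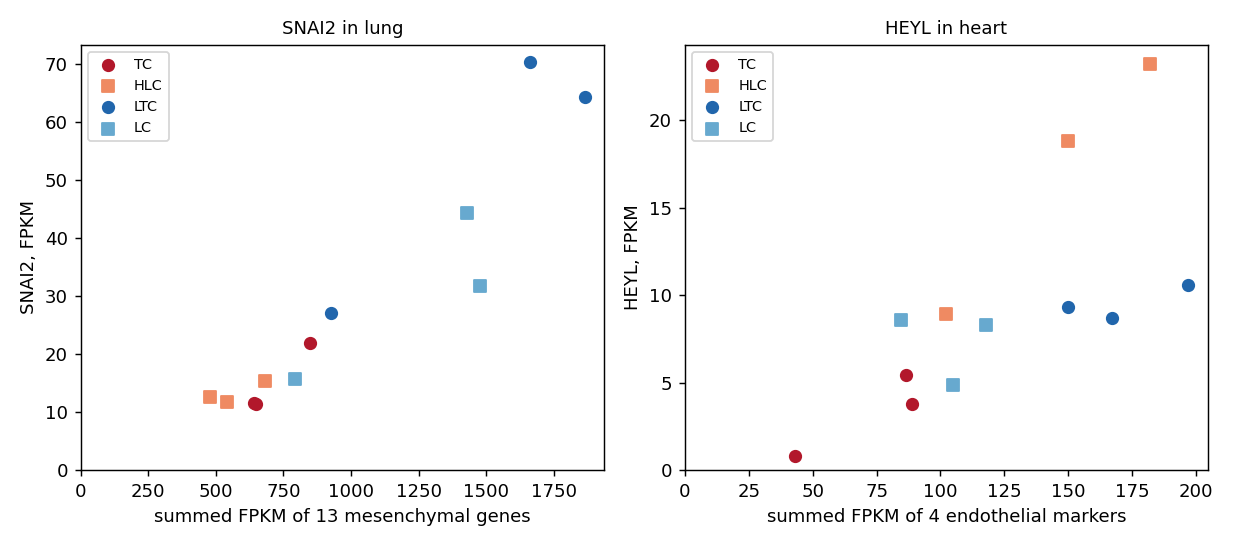
Left, FPKM of SNAI2 against the summed FPKM of 13 mesenchymal genes in the 12 lung libraries. Right, FPKM of HEYL against the summed FPKM of 4 endothelial markers in the 12 heart libraries. In lung, LTC replicates 2 and 3 are highest on both axes, at 70.4 and 64.3 FPKM of SNAI2. In heart, TC replicate 2 is lowest on both, at 0.809 FPKM of HEYL.

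Epithelial genes, 13 of 28 listed, held 11 that could be tested in lung, of which 2 were higher at 3300 m and none lower, with a median of 0.31, where 5.57% of all genes were higher and 17.1% were called in either direction. These were CTNND1, p120 catenin (0.42 ± 0.08, adjusted p = 0.0077), and KRT14, a basal keratin (1.21 ± 0.31, adjusted p = 0.024). CDH1, the junction protein E-cadherin and a known target of SNAI2 repression, did not pass the test in lung, at 0.21 ± 0.25 (adjusted p = 0.59). Of 5 other regulators of epithelial-mesenchymal transition tested in lung, among them TCF12, TGFB2, ELF3 and ESRP2, none was called by altitude, with adjusted p of 0.062 or more. Brain markers, which other tissues should lack, were also present in lung, at 12.8 to 23.1 FPKM in TC and HLC and 25.5 to 72.5 FPKM in LTC and LC.

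In liver, SNAI2 was low in most libraries and above 1 FPKM in all LTC libraries. The TC libraries held 0.469, 0.247 and 0.54 FPKM, and the HLC libraries 0.307, 0.488 and 1.63 FPKM. The LTC libraries held 1.24, 1.8 and 1.48 FPKM, and the LC libraries 0.413, 0.602 and 0.896 FPKM. In Tibetan chickens the altitudes did not overlap, while in lowland chickens they did.

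The altitude difference of SNAI2 in liver was -0.37 ± 0.17 over both types. In Tibetan chickens it was -0.82 ± 0.23, in a contrast that called 50.7% of all genes, and in lowland chickens 0.08 ± 0.23 (adjusted p = 0.83). SNAI2 passed the filter through its high LTC libraries, so 2 of the p are taken from the fit with no filter. They are that of the Tibetan difference (limma adjusted p = 0.018) and that over both types (adjusted p = 0.1). The difference between the types, -0.91 ± 0.33, is made from the same LTC libraries. It is given without a test, so no difference between the types is claimed. With the filter, the altitude difference in Tibetan chickens missed the threshold under quantile normalization (-0.51, limma adjusted p = 0.085). It also missed in the fit of all 48 libraries (adjusted p = 0.06) and without TC replicate 2 (-0.73, adjusted p = 0.052). Of the mesenchymal genes, 7 of the 9 tested in liver were lower at 3300 m, where 41.6% of all genes were, with a median of -0.41 against -0.25 for all genes.

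In brain, SNAI2 ran from 0.471 to 0.718 FPKM in TC, 0.782 to 0.927 in HLC, 1.16 to 1.33 in LTC and 0.723 to 1.05 in LC. Every LTC library was above every other brain library. The altitude difference was -0.28 ± 0.09. Since SNAI2 passed the filter in brain only through libraries at 670 m, its p is taken from the fit with no filter (limma adjusted p = 0.056). In Tibetan chickens the altitude difference was -0.51 ± 0.13, given without a test for the same reason. In heart, the LTC libraries held 10.9, 9.26 and 9.75 FPKM and the 9 others 2.18 to 10.4 FPKM, the highest of these being TC replicate 2. The altitude difference in heart was -0.36 ± 0.29 (adjusted p = 0.97), the type difference 0.57 ± 0.29 (adjusted p = 0.38) and the type difference at 670 m 1.12 ± 0.41 (adjusted p = 0.35). In heart, altitude called 0.0193% of all genes and type 0.00964%.

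HES5 in brain was lowest in Tibetan chickens at 3300 m. The TC libraries held 0.0337, 0.206 and 0.185 FPKM, and the HLC libraries 0.65, 0.413 and 0.315 FPKM. The LTC libraries held 0.744, 1.56 and 1.09 FPKM, and the LC libraries 1.04, 0.792 and 0.439 FPKM. Every TC library was below every other brain library, and every LTC library was above every library at 3300 m, while HLC and LC overlapped.

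These levels rest on few fragments. Relative depth was estimated for each library from its low genes. The FPKM worth of 1 HES5 fragment was then set from the lowest HES5 values above 0, scaled by that depth. These were the 3 heart values and brain TC replicate 1, so each counts as about 1 fragment by construction. On this assumption the 3 TC libraries held about 12 HES5 fragments in all (95% Poisson interval 6.2 to 21) and the 3 HLC libraries about 35 (24.4 to 48.7). The 3 LTC libraries held about 82 (65.2 to 102) and the 3 LC libraries about 57 (43.2 to 73.9). These intervals cover counting error only. In the libraries where HES5 was listed at 0, the upper limit that a count of 0 allows, 3 fragments, would have been 0.103 to 0.152 FPKM. This limit rests on the same assumption.

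**Figure D4:**
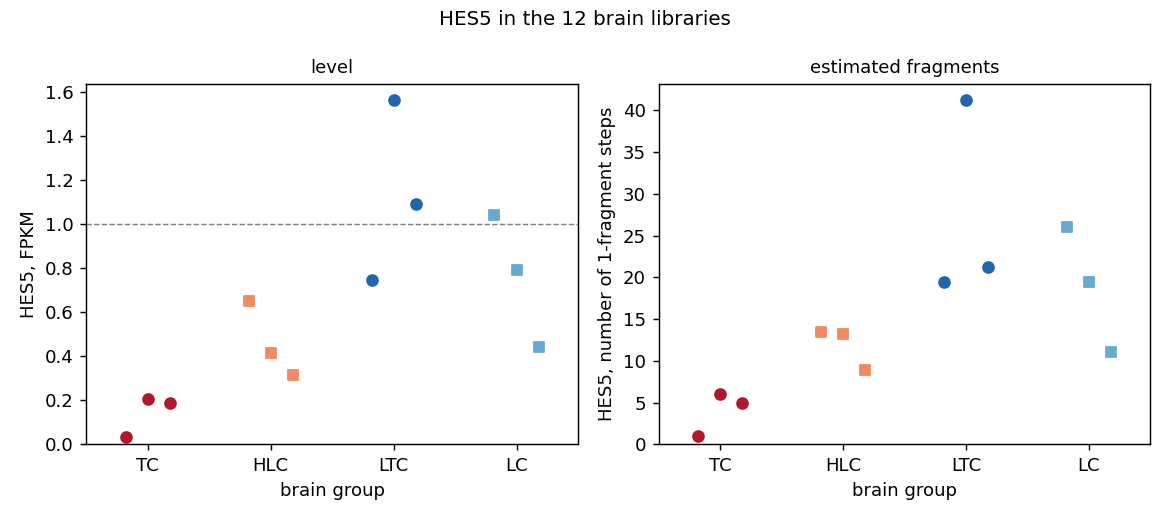
HES5 in the 12 brain libraries by group, as FPKM (left, with a dashed line at 1 FPKM) and as the estimated number of fragments (right). Each point is 1 library. The TC libraries lie at 0.0337 to 0.206 FPKM, and 3 libraries, all at 670 m, exceed 1 FPKM.

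The altitude difference of HES5 in brain, which led to its choice and is not tested, was -0.57 ± 0.13 (SE) on the log2(FPKM + 1) scale, and -1.49 with a pseudocount of 0.1 FPKM in place of 1. It was -0.89 ± 0.19 in Tibetan and -0.26 ± 0.19 in lowland chickens. The difference between these values was -0.63 ± 0.27, and it is given without a test, since it is made from the values that chose HES5 and that carried it past the filter. The type difference was -0.04 ± 0.13 (adjusted p = 1). The astrocyte markers SLC1A2 and AQP4, 2 of 14 listed with neural progenitor markers, summed to 269 to 370 FPKM in TC, 203 to 221 in HLC, 161 to 446 in LTC and 185 to 198 in LC, and their part was not tested.

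In brain, HES5 and SNAI2 varied together over the 12 libraries (r = 0.84), which share the altitude and type groups. Among other genes with a symbol, OFD1, a centriole protein of cilia, was the closest to HES5 in brain (r = 0.88). Next were LPXN, leupaxin of focal adhesions (r = 0.82), and IFNAR1, a type I interferon receptor chain (r = 0.81). Over the 16 group means, in which HES5 is near 0 outside brain, the closest were SLC30A8 (r = 0.93), KCNH8 (r = 0.90) and EGFL6 (r = 0.89). In the RefSeq annotation of the chicken assembly GRCg7b, HES5 lies on chromosome 21 and its span overlaps PRDM16 and LOC419390. Whether counting used strand is not given, so reads of these genes may not be separable.

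HEYL in heart separated the chicken types at 3300 m. The TC libraries held 5.46, 0.809 and 3.81 FPKM, and the HLC libraries 23.2, 18.8 and 8.94 FPKM. The LTC libraries held 9.31, 10.6 and 8.69 FPKM, and the LC libraries 4.88, 8.6 and 8.31 FPKM. All TC libraries were below all HLC and all LTC libraries, and all HLC libraries were above all LC libraries. Group means were 3.36 ± 2.36 FPKM in TC, 17 ± 7.32 in HLC, 9.53 ± 0.968 in LTC and 7.26 ± 2.07 in LC (SD, n = 3).

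The altitude difference of HEYL in heart, given without a test, was -1.45 ± 0.44 for Tibetan and 1.06 ± 0.44 for lowland chickens, and -0.20 ± 0.31 over both. The type difference at 3300 m was -2.14 ± 0.44 (limma adjusted p = 0.025), in a contrast that called 6.55% of all genes, and at 670 m it was 0.38 ± 0.44 (adjusted p = 0.69). The interaction was -2.52 ± 0.62 and missed the threshold (adjusted p = 0.052), in a contrast that called 2.79% of all genes. Of these 289 genes, 270 were lower. The median of all genes in heart was -0.471 for the interaction. For altitude it was -0.244 in Tibetan and 0.218 in lowland chickens. The type difference of HEYL over both altitudes was -0.88 ± 0.31 (adjusted p = 0.28). If one of these values led to the choice of HEYL, its p is not independent of that choice. The interaction is made from the altitude differences that are given without a test, so this limit applies to its p in particular.

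The call at 3300 m was lost without HLC replicate 1 (-1.87, adjusted p = 0.095), HLC replicate 2 (-2.02, adjusted p = 0.11) or TC replicate 2 (-1.59, adjusted p = 0.052), under quantile normalization (-1.86, adjusted p = 0.054), under upper quartile scaling (-1.97, adjusted p = 0.06) and with the replicate block (adjusted p = 0.051). The median of all genes was -0.215 for this contrast and 0.037 under quantile normalization. Marker levels also differed between these groups. The 4 endothelial markers with a symbol, of 14 listed, summed to 43 to 88.7 FPKM in TC, 102 to 182 in HLC, 150 to 197 in LTC and 84.6 to 118 in LC. Both these sums and HEYL were lower in every TC library than in every HLC and LTC library. The highest endothelial sum was in LTC, and the highest HEYL value in HLC. The interaction called 1 of the 4 endothelial markers lower and none higher, where it called 2.79% of all genes. Their median was -1.27 against -0.47 for all genes. The 2 smooth muscle and pericyte markers with a symbol, of 12 listed, summed to 44.9 to 87.2 FPKM in TC and 82.2 to 91.8 in HLC. They summed to 60.2 to 96.3 FPKM in LTC and 45.8 to 65.8 in LC. The heart markers, 8 of 18, were higher in TC, at 4859 to 7239 FPKM, than in HLC, at 2748 to 3808. They lay at 3299 to 4861 FPKM in LTC and 3632 to 4947 in LC. The part of these cell types in the HEYL values was not tested.

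HEYL varied less in the other tissues. In liver, the TC libraries held 0.4, 0.723 and 0.346 FPKM, the HLC libraries 0.25, 1.37 and 1.11, the LTC libraries 1.72, 2.58 and 0.833, and the LC libraries 1.32, 0.628 and 1.18. TC and LTC did not overlap, and the altitude difference, given without a test, was -0.82 ± 0.28 in Tibetan and -0.13 ± 0.28 in lowland chickens. In brain it ran from 6.44 to 15.9 FPKM and in lung from 6.72 to 14.6 FPKM, with all groups overlapping in lung. The altitude differences there were 0.31 ± 0.20 in brain and 0.11 ± 0.19 in lung, and the type differences were 0.03 ± 0.20 (adjusted p = 1) and -0.07 ± 0.19 (adjusted p = 0.88). Among genes with a symbol, CUEDC1 was the closest to HEYL over the 16 group means (r = 0.96). Next were CUL3, a ubiquitin ligase scaffold (r = 0.94), and DPYSL3, a cytoskeletal protein of growing axons (r = 0.94). Within lung the closest were LDB2 (r = 0.76), TAF1A (r = 0.72) and PANK1 (r = 0.71).

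The other measured genes of the Notch pathway were 6 of 55 listed, among them RBPJ, the DNA-binding partner of the Notch intracellular domain; the ubiquitin ligases NEURL1B and ITCH; the corepressor NCOR1; and HES4, a relative of HES5. None was called by altitude or type in brain or heart. Of all genes, altitude called 2.26% in brain and 0.0193% in heart, and type 0.00861% and 0.00964%, so this count says little. The interaction in heart, which called 2.79% of all genes, also called none, with a median of -0.84 against -0.47 for all genes. There NEURL1B stood at -2.14 ± 0.56 (limma adjusted p = 0.059), HES4 at -1.19 ± 0.35 (adjusted p = 0.076) and ITCH at 0.12 ± 0.27 (adjusted p = 0.78). In liver 4 of the 6 were lower at 3300 m and none higher, in a contrast that called 41.6% of all genes lower, with a median of -0.53 against -0.25 for all genes. These included RBPJ (-1.49 ± 0.31, adjusted p = 0.0024), ITCH (-0.39 ± 0.11, adjusted p = 0.011) and NEURL1B (-0.67 ± 0.22, adjusted p = 0.023). In lung NEURL1B was lower at 3300 m (-0.46 ± 0.11, adjusted p = 0.017). HES4 was highest in lung, at a median of 8.28 FPKM, where HES5 was listed at 0, and no altitude difference of HES4 passed the test in any tissue.

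MYCL and HEYL lie near each other on chromosome 23 in GRCg7b, with 4 protein-coding genes between them, and SNAI2 lies on chromosome 2. Of 24 protein-coding genes within 100 kb, 18 have a symbol in the table. In liver 13 of these were tested, of which 7 were lower and 1 higher at 3300 m, with a median of -0.31 against -0.25 for all genes, in a contrast that called 41.6% of all genes lower. Among the nearest 6, CAP1, an actin-regulating protein, was lower in liver (-0.43 ± 0.10, adjusted p = 0.0047), as was PABPC4, a poly(A)-binding protein (-0.28 ± 0.11, adjusted p = 0.046). TRIT1, a tRNA-modifying enzyme, stood at 0.08 ± 0.11 (adjusted p = 0.56) and MFSD2A, a lipid transporter, at -0.56 ± 0.27 (adjusted p = 0.1). NT5C1A and HPCAL4 were below the filter in liver, with medians of 0.0356 and 0.0485 FPKM. In heart, none of the 14 neighbours tested was called by altitude or type, which called only 0.0193% and 0.00964% of all genes. The interaction in heart, which called 2.79% of all genes, also called none of them, with a median of -0.57 against -0.47 for all genes. In lung MFSD2A was higher at 3300 m (0.87 ± 0.13, adjusted p = 0.002), where MYCL and HEYL stood at -0.01 and 0.11. Over the 12 liver libraries MYCL and HEYL had a correlation of 0.35, and over the 12 brain libraries of 0.43.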

How the data were processed

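The authors deposited FPKM values per gene and library. Per the submitters' processing notes, TopHat and Cufflinks 2.2.1 were used with the galGal4 assembly; no source used here states the annotation release, strand setting or read filters. RNA came from TRIzol extraction and Illumina TruSeq libraries. No normalization to a common total was seen in the deposited columns, so differences in composition between libraries remain in the values, and depth is known only in relative terms. Every column was used.

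Symbols came from a published list that covers 1182 of the 17108 genes (6.91%). Lists therefore stand for their named members only. Chromosomes and neighbours came from RefSeq on GRCg7b.

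Genes that reached 1 FPKM in 3 or more libraries were tested with limma 3.58.1 (trended moderation, 1 mean per group) in R 4.3.3 on log2(FPKM + 1), per tissue, and over 48 libraries for tissues. The altitude contrast subtracts the mean of LTC and LC from that of TC and HLC, and the type contrast that of HLC and LC from that of TC and LTC. P-values were adjusted by Benjamini-Hochberg over all genes tested. The fit was tested on simulated data. The factors and lists were chosen with earlier results of these data known. Named genes were the 4 factors, up to 4 list genes per contrast with the smallest p, and the nearest 6 neighbours on chromosome 23. Also named were the 3 genes with a symbol closest to each factor by Pearson correlation of log2(FPKM + 1). CDH1, HES4 and NCOR1 were named beyond this rule, after their values were seen. Of the genes this rule names, 2 are not reported here. Relative depth was estimated from the smallest FPKM steps, an addition made after the data were seen, in which 94.9% of 1128 library pairs were fitted within 0.1 log2 units.

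Alternatives were pseudocounts, filters, quantile normalization, upper quartile scaling, moderation without a trend, 1 fit of all libraries, a replicate block and leaving out each library.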

Additional observations from a re-analysis of the deposited data

Results flagged for a closer look

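HEYL in heart moved in opposite directions with altitude in the chicken types: every Tibetan library at 3300 m was below every Tibetan library at 670 m, and every lowland library at 3300 m was above every lowland library at 670 m. The difference between the altitude differences was -2.52 on the log2(FPKM + 1) scale, and its limma test missed the threshold (adjusted p = 0.052). HEYL was chosen with these data known, so the p of this interaction may not be independent of that choice. Over all genes in heart the medians also had opposite signs, at -0.244 in Tibetan and 0.218 in lowland chickens. Under quantile normalization these medians were 0.035 and -0.003, and the HEYL interaction was -2.02 (limma adjusted p = 0.16).

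Among the 6 libraries at 3300 m of a tissue, 3 values stood far from the other 5 by a gap test on the highest and the lowest library. These were MYCL in liver at 5.9 FPKM (HLC replicate 1), SNAI2 in liver at 1.63 FPKM (HLC replicate 3) and SNAI2 in lung at 21.9 FPKM (TC replicate 3). Each set of 6 pools both chicken types. The gap test was run for each factor in each tissue where enough libraries had values. It was also run at 670 m, where no library stood out. Chance alone marks about 1 in 20 groups if the values are normally distributed, which need not hold for pooled FPKM.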

How the results depend on the processing

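Of 1706 alternative values for 57 results, 1604 kept direction and call, 33 lost a call and 26 gained one. A further 3 moved by more than the spread and 40 changed sign, and the cause was not tested. These counts include the interactions that are given above without a test, so not every call counted is a result reported here. With a pseudocount of 0.1, the altitude difference of HES5 in brain was -1.49, of MYCL in liver -2.91 and of HEYL in liver -0.95. Calls were lost as follows. The type difference of MYCL in liver was -0.94 with no filter, -0.82 under quantile normalization, -0.86 under upper quartile scaling and -0.94 with the replicate block; at 3300 m it was -1.19, -0.96, -1.09 and -1.19. The type difference of HEYL in heart at 3300 m was -1.86 under quantile normalization, -1.97 under upper quartile scaling and -2.14 with the replicate block. The altitude difference of SNAI2 in liver of Tibetan chickens was -0.51 under quantile normalization and -0.82 in the fit of 48 libraries. The block changed no other call. Among groups of 1 tissue, same-numbered libraries deviated together in every pair only between TC and LTC in brain (correlations 0.373 to 0.452), so the numbers were not taken as pairs. Among tissues of 1 group, some did so, such as liver and lung of TC (0.244 to 0.292) and brain and heart of LC (0.149 to 0.249). Others did not, such as brain and lung of HLC (-0.127 to 0.155). Signs changed in these cases under quantile normalization: MYCL in lung, altitude 0.06 and type -0.03; brain minus heart of HEYL -0.31; brain minus liver of SNAI2 -0.72 (adjusted p = 6.3e-04); brain minus lung of HEYL 0.00; heart minus lung of MYCL 0.31 (adjusted p = 0.042) and of HEYL 0.32. Under upper quartile scaling they were MYCL in lung, altitude 0.00, brain minus heart of HEYL -0.17, brain minus liver of SNAI2 -0.19 and heart minus lung of HEYL 0.12. For the interaction of HEYL in heart, no p may be independent of the choice of HEYL, and passing is therefore not read as a result. This interaction passed in the fit of 48 libraries (limma adjusted p = 7.1e-04) and with a mean of at least 5 FPKM (adjusted p = 0.043). It also passed without HLC replicate 3, TC replicate 1 or TC replicate 2 (adjusted p of 0.041 to 0.045). This interaction missed the threshold under quantile normalization (limma adjusted p = 0.16) and upper quartile scaling (adjusted p = 0.18). It also missed with no filter, with the replicate block and without any other single library (adjusted p up to 0.12 in the last case). Leaving out each library gave these ranges: MYCL in liver, type -1.14 to -0.75 and at 3300 m -1.43 to -0.82; HEYL in heart, type at 3300 m -2.52 to -1.59, altitude -0.39 to 0.07; heart minus lung of HEYL -0.54 to -0.31; SNAI2 in liver of Tibetan chickens -0.90 to -0.73; type of HES5 in brain -0.11 to 0.03, of HEYL in brain -0.15 to 0.14, in liver -0.11 to 0.16 and in lung -0.16 to 0.09; interaction of HEYL in lung -0.05 to 0.47; altitude of MYCL in brain 0.00 to 0.24 and in lung -0.10 to 0.06; type of SNAI2 in brain -0.04 to 0.02. HES5 fell below the filter when any of its 3 libraries above 1 FPKM was left out. The genes called over the whole table fell from 680 to 167 (quantile) and 103 (upper quartile) for type at 3300 m in heart, from 289 to 27 and 19 for the interaction in heart, and in liver from 1091 to 548 under quantile normalization for type and from 1390 to 701 for the interaction. The HES5 values in brain rest on few fragments, and total depth is unknown.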
